A study of Mus musculus with 2 samples.

Results

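The 39 Hox genes of the mouse were followed through the cell types of the aorta of ApoE-/- mice. They were taken as every gene in the deposited count table whose symbol is Hoxa, Hoxb, Hoxc or Hoxd followed only by digits, which gave 39 of 32285 genes, with 11 Hoxa, 10 Hoxb, 9 Hoxc and 9 Hoxd members. The study has 2 samples of aortic cells, labelled MSC_ITGB3 and HFD, from mice 20 weeks of age that all carry the ApoE-/- strain label, and its design text says that it surveyed aortic cells of HFD-fed mice that did or did not receive MSC_ITGB3. Mice without apolipoprotein E are a standard model of atherosclerosis, the genotype was common to both samples, and the labels give neither the number of mice behind a sample nor how MSC_ITGB3 was made or given. Cells were run on Chromium 3' v3, a droplet assay that tags each molecule with a barcode for its droplet and with a unique molecular identifier (UMI). The counts came as 1 matrix with 2 barcode suffixes, called library 1 and library 2 here. Nothing in the sources ties a suffix to a sample, so the matrix counts as 1 sample, no library was given a treatment, MSC_ITGB3 and HFD were not compared, and no p-value was computed.

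Hox genes encode homeodomain transcription factors that lie in 4 clusters and fall into 13 paralogue groups by their order along them. In the embryo the genes at the start of a cluster (group 1) are used furthest forward and those at its far end furthest back, so that the set of Hox genes in a cell is a record of its level along the body axis, and vascular and connective tissue cells keep much of that record in the adult. The Hox proteins bind DNA together with TALE homeodomain proteins of the Pbx, Meis and Pknox families. In the GENCODE vM21 annotation of GRCm38, the assembly mm10, the Hoxa cluster lies on chromosome 6 from 52155590 to 52260880, the Hoxb cluster on chromosome 11 from 96194316 to 96368256, the Hoxc cluster on chromosome 15 from 102921103 to 103036852 and the Hoxd cluster on chromosome 2 from 74668310 to 74765142. All 39 gene identifiers were found there. The genes the results turn on most are Hoxa3 (ENSMUSG00000079560, 52169062 to 52213336), Hoxa7 (ENSMUSG00000038236, 52214491 to 52221854), Hoxa9 (ENSMUSG00000038227, 52223100 to 52231089) and Hoxa10 (ENSMUSG00000000938, 52231197 to 52240854) on chromosome 6, Hoxb9 (ENSMUSG00000020875, 96271457 to 96276595) on chromosome 11, and Hoxc8 (ENSMUSG00000001657, 102990607 to 102994111) and Hoxc10 (ENSMUSG00000022484, 102966796 to 102971893) on chromosome 15. Exons of Hoxc5 and Hoxc10, and of Hoxd3 and Hoxd4, overlap on the same strand, so how the authors' counting divided UMIs within these pairs is uncertain.

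Promoter windows of 4 Hoxa genes are printed because the results on smooth muscle turn on the paralogue group of a Hoxa gene. Hoxa2 and Hoxa3 had like levels in smooth muscle barcodes with and without a UMI of Hand2. Hoxa7 and Hoxa9 were far lower in those with one. For Hoxa9, too low to enter the calls on this division, there were 1 and 0 UMIs with Hand2 in library 1 and library 2. Barcodes without Hand2 gave 39 and 57, all outside the mural gate described further on. The Hoxa3 window is the start of a long transcript and lies past Hoxa5 and Hoxa6, next to Hoxa7, so it does not mark the start of the cluster. The windows run from 250 bases before to 50 bases after the RefSeq start site on GRCm38.p6, 5′ to 3′ on the minus strand. They are chr6:52164782-52165081 for Hoxa2, chr6:52213018-52213317 for Hoxa3, chr6:52218524-52218823 for Hoxa7 and chr6:52227321-52227620 for Hoxa9. Capitals mark a match on either strand to TGATTNAT, a site of Hox and Pbx proteins together, or to TGACAG, a site of Meis and Pknox proteins.
Hoxa2: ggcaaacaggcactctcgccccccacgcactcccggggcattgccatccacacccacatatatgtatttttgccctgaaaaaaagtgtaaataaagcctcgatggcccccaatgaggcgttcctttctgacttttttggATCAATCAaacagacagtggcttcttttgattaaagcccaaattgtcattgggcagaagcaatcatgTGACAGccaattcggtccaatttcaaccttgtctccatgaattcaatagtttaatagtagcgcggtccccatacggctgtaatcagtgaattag
Hoxa3: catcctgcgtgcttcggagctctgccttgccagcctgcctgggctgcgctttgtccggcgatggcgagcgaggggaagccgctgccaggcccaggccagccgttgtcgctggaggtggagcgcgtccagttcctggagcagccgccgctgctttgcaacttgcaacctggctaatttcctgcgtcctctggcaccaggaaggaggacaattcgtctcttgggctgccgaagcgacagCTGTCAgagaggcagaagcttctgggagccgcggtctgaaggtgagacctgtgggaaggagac
Hoxa7: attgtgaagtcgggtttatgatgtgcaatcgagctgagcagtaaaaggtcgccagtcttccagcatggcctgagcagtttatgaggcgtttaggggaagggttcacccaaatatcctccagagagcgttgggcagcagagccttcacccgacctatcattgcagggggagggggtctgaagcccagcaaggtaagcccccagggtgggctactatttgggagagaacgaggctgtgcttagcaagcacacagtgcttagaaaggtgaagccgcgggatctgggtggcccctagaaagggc
Hoxa9: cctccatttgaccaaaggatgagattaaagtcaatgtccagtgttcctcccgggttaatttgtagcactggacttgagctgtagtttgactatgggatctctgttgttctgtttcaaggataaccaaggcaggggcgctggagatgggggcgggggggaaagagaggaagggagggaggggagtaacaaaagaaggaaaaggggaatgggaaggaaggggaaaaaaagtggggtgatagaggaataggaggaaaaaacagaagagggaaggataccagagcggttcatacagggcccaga
The Hoxa2 window held a Hox and Pbx match 111 bases before the start and a Meis match 44 bases before it, and the Hoxa3 window held a Meis match 13 bases before the start. Neither set of letters occurred in the windows of Hoxa7 and Hoxa9. Windows were at hand for 22 of the 39 Hox genes (24 windows in all), of which 2 held TGATTNAT (Hoxa2 and Hoxd11) and 2 held TGACAG (Hoxa2 and Hoxa3). Among all 32851 windows of this length, 3.22% held TGATTNAT and 19.2% held TGACAG.

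Barcodes were kept at 3000 or more UMIs and at most 20% mitochondrial UMIs, which left 6332 in library 1 and 6540 in library 2 with median depths of 8746 and 6031 UMIs. They were placed in classes by summed marker genes, and the class names stand for likeness in those markers only. The 5 classes held 61.2% of the kept barcodes of library 1 and 59.6% of those of library 2, with 14031 and 11468 Hox UMIs. Library 1 and library 2 gave 832 and 175 endothelial barcodes, 987 and 1447 smooth muscle barcodes, 1845 and 1638 fibroblast barcodes, 153 and 613 chondrocyte barcodes, and 58 and 27 Schwann barcodes. The chondrocyte class carried its own markers at a median of 51.8 and 119 per 10000 UMIs and fibroblast markers at 254 and 217 per 10000, as high as the fibroblast class itself at 225 and 224. Its cartilage genes thus stood beside fibroblast genes in the same barcodes. Its smooth muscle markers stood at 4.13 and 21.3 per 10000 and its median depths were 16653 and 4791 UMIs. Chondrocyte barcodes of library 1 and library 2 were thus unlike in depth and markers. The libraries shared 17 barcode sequences among kept barcodes, 4 of them in the 5 classes.

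Levels are given as CPM, the UMIs of a gene per 1000000 UMIs of all barcodes of a class, each with an exact 95% interval that spans no error but that of counting. A 3' assay counts 1 tag per molecule, so CPM was not divided by gene length. In a sum over a class, fewer cells using a gene and less of its RNA in each cell cannot be told apart. Values in pairs are for library 1 and then library 2.

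Of the 5 classes, Hox RNA was highest in endothelial and lowest in Schwann barcodes. The 39 genes together reached 432.2 CPM (420.8 to 443.8) and 452.3 CPM (425.9 to 479.9) in endothelial barcodes. They summed to 269.7 (260.4 to 279.2) and 316.1 CPM (307.2 to 325.2) in smooth muscle, to 208.1 (202.4 to 213.9) and 273.3 CPM (265.4 to 281.3) in fibroblast, and to 97.15 (86.5 to 108.8) and 148.2 CPM (139.4 to 157.4) in chondrocyte barcodes. Schwann barcodes held 51.8 (27.58 to 88.57) and 90.44 CPM (48.16 to 154.7), from only 13 Hox UMIs in each library. The order of the 5 classes was the same in both libraries. Neighbours in it were apart beyond counting error except chondrocyte and Schwann, whose intervals overlapped in both.

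Over the mean of the other 4 classes the sum was 2.45 times as high in endothelial, 1.34 times in smooth muscle, 1.03 times in fibroblast, 0.46 times in chondrocyte and 0.25 times in Schwann barcodes (geometric mean of the libraries). Cells of blood origin gave the background, where macrophage barcodes held 9.221 and 18.67 CPM and T or NK barcodes 7.21 and 14.49 CPM. Smaller classes of blood origin had few Hox UMIs and wide intervals, with 10.45 and 37.71 CPM in dendritic (5 and 9 UMIs), 24.9 and 20.95 CPM in neutrophil (5 and 1 UMIs), 88.89 and 0 CPM in erythroid (5 and 0 UMIs) and 0 UMIs in B barcodes. Low-count barcodes of 10 to 100 UMIs, taken to hold free RNA, carried 159.4 and 229.7 CPM, above the chondrocyte and Schwann classes. From the markers of other classes, free RNA was put at 0.743% to 2.9% of the UMIs of a class.

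**Figure D1:**
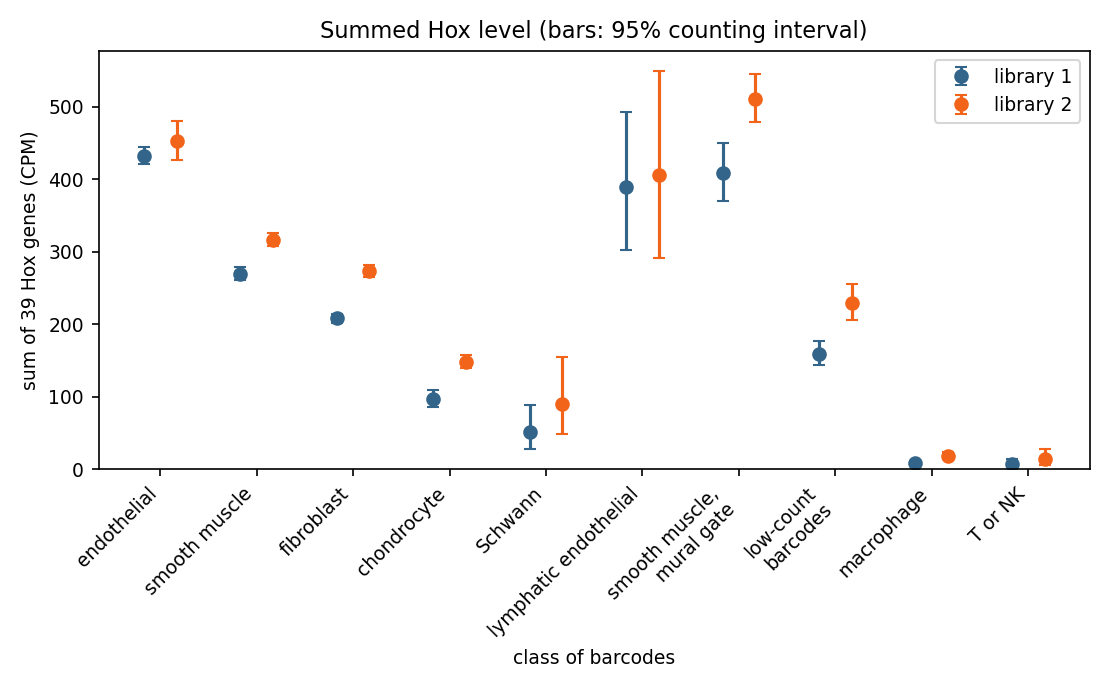
Summed level of the 39 Hox genes (CPM, y axis) in each class of barcodes (x axis), 1 point per library with its 95% counting interval. Endothelial barcodes lie at 432.2 and 452.3 CPM and macrophage barcodes at 9.221 and 18.67 CPM.

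The share of barcodes with any Hox UMI followed the same order. After each barcode was thinned to 3000 UMIs, which left none out, it was 65.5% and 67.4% in endothelial, 48.4% and 56.3% in smooth muscle, 43.6% and 53.8% in fibroblast, 34% and 38.7% in chondrocyte, and 12.1% and 22.2% in Schwann barcodes. In macrophage barcodes it was 4.74% and 7.66%, and their median depth of 11221 and 8639.5 UMIs was close to the 12022.5 and 11203 of endothelial barcodes. Without thinning the shares were 88.7% and 90.9% in endothelial barcodes against 10% and 17.5% in macrophage barcodes.

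A member was called detected in a class at 5 or more CPM and 5 or more UMIs in both libraries. By this rule 18 of the 39 were detected in at least 1 class and 21 in none. Endothelial barcodes had 16, fibroblast 13, smooth muscle 12, chondrocyte 5 and Schwann 0. Hoxa3, Hoxa5, Hoxa7, Hoxb2 and Hoxb3 were detected in all classes but Schwann, and 10 members in each of endothelial, smooth muscle and fibroblast barcodes. The detected set reached from group 2 to group 7 or beyond in each of these 4 classes.

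**Figure D2:**
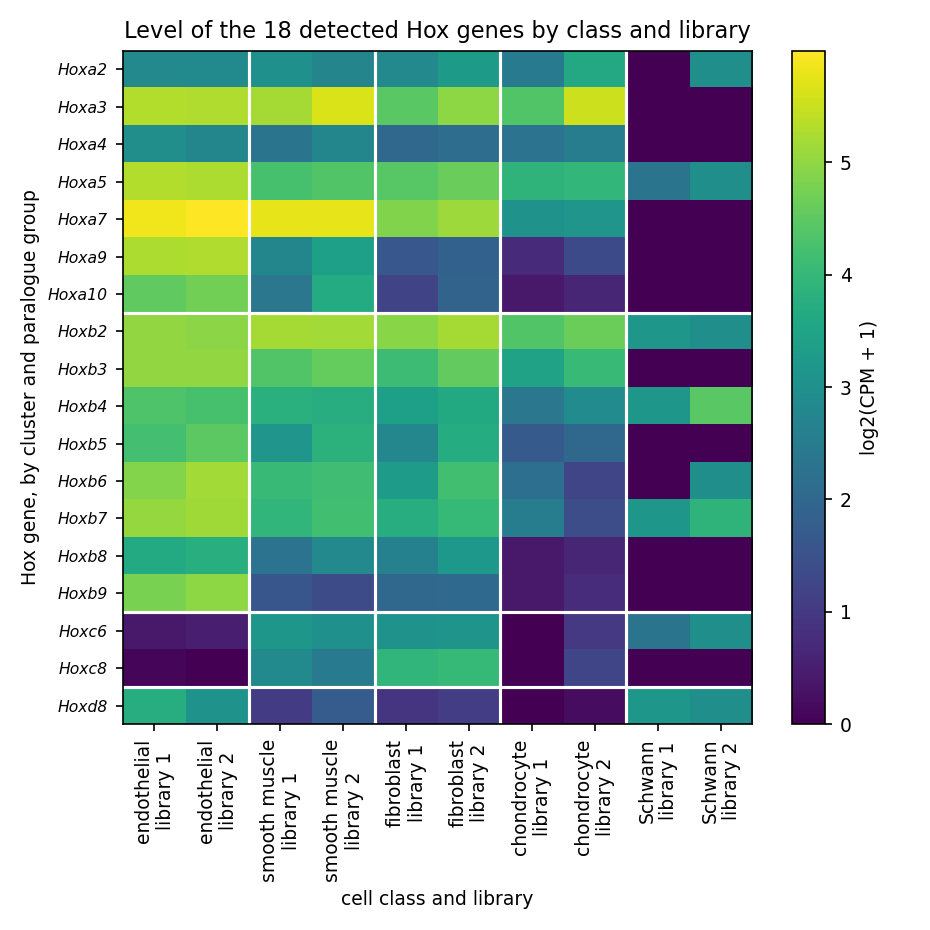
Level of the 18 Hox genes detected in at least 1 class, as log2(CPM + 1) by colour, in rows by cluster and paralogue group and in columns by class and library. Endothelial columns carry Hoxa9, Hoxa10 and Hoxb9 and have next to nothing in the Hoxc rows, whereas fibroblast and smooth muscle columns carry Hoxc6 and Hoxc8.

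Among the 5 classes, endothelial barcodes stood out by the far end of the Hoxa and Hoxb clusters. A small mural part of the smooth muscle class, described further on, held as much RNA of groups 9 to 13 or more. A member counted as higher in a class when it was detected there and 2-fold or more above the mean of the other 4 classes in both libraries. In endothelial barcodes 11 of 16 detected members were, against 11.6% of all 10075 genes detected in the class. The mean includes Schwann barcodes, which held only 13 Hox UMIs in each library and so lower it. With Schwann left out of the mean, Hoxa5, Hoxa7 and Hoxb3 were not 2-fold higher in both libraries. Hoxb9, a gene of thoracic segment identity, had 26.78 and 30.51 CPM in endothelial barcodes and averaged 1.354 CPM over the other classes in each library, which is 19.8 and 22.5 times as high. At that level elsewhere, meeting the detection rule already fixed the call on Hoxb9. Hoxa9, which also acts in blood stem cells and in new vessels, had 36.96 and 37.93 CPM there against 2.117 and 3.413 CPM elsewhere, ratios of 17.5 and 11.1. Hoxa10, a gene of lumbar segment identity, had 22.25 and 25.15 CPM against 1.473 and 3.816 CPM, ratios of 15.1 and 6.59. Among the members that met the detection rule, these 3 genes of groups 9 and 10 were the furthest above the other classes in both libraries. Below it, Hoxd4 had 3.258 and 4.535 CPM against 0.06204 and 0.06675 CPM elsewhere, from 41 and 11 UMIs.

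The other 8 were higher by less. Hoxb8 was 5 and 3.47 times as high, Hoxd8 5 and 2.81 times, Hoxb5 4.38 and 3 times, Hoxb6 4.04 and 3.31 times, and Hoxb7 3.24 and 2.87 times. Hoxa7, the highest Hox gene of the class, had 57.06 and 62.67 CPM against 22.31 and 23.64 CPM, ratios of 2.56 and 2.65. Hoxa5, which is needed for lung and neck development, had 38.39 and 37.11 CPM, ratios of 2.72 and 2.29, and Hoxb3 had 31.63 and 31.33 CPM, ratios of 2.78 and 2.05. The 5 detected members that were not called higher, Hoxa2, Hoxa3, Hoxa4, Hoxb2 and Hoxb4, all belong to groups 2 to 4. Hoxb2, for instance, had 31.55 and 29.69 CPM in endothelial barcodes and 35.17 and 34.98 CPM in smooth muscle barcodes.

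The Hoxc cluster was close to silent in the same endothelial barcodes. All 9 Hoxc genes together gave 16 UMIs in 832 barcodes and 4 UMIs in 175 barcodes, or 1.272 CPM (0.7268 to 2.065) and 1.649 CPM (0.4494 to 4.223). Fibroblast barcodes held 32.36 and 37.38 CPM and smooth muscle barcodes 23.45 and 27.9 CPM of Hoxc RNA. Hoxd RNA ran the other way, at 23.21 and 20.2 CPM in endothelial, 2.783 and 4.806 CPM in smooth muscle and 1.556 and 1.857 CPM in fibroblast barcodes. Endothelial Hoxd RNA was mostly Hoxd8 (12.4 and 7.421 CPM), Hoxd9 (4.689 and 5.36 CPM) and Hoxd4 (3.258 and 4.535 CPM). Of all Hox UMIs in the class, Hoxc gave 0.294% and 0.365% and Hoxd 5.37% and 4.47%.

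Smooth muscle barcodes were led by Hoxa7, at 53.98 and 53.26 CPM. It was the only 1 of 12 detected members called higher there, against 7.34% of all 9863 genes detected in the class, with 23.08 and 25.99 CPM over the other classes and ratios of 2.34 and 2.05. Schwann barcodes entered that mean at 0 CPM in both libraries, where a single UMI is worth 3.98 and 6.96 CPM. With Schwann left out of the mean, Hoxa7 was under 2-fold in both libraries. Its level was not apart from that of endothelial barcodes, where the ratio of endothelial over smooth muscle was 1.06 (0.949 to 1.18) and 1.18 (0.983 to 1.4). Hoxa3, which shapes the third pharyngeal arch and its arteries, came next at 35.42 and 49.33 CPM, followed by Hoxb2 (35.17 and 34.98 CPM), Hoxb3 (19.48 and 22.83 CPM) and Hoxa5 (18.13 and 19.69 CPM). The call on Hoxa7 did not survive several other settings, and without the mural barcodes described further on the count was 0.

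Fibroblast barcodes were marked by Hoxc8, a gene of thoracic skeletal and motor neuron identity. It had 14.33 and 15.22 CPM in fibroblast barcodes and averaged 1.559 and 1.468 CPM over the other classes, ratios of 9.19 and 10.4. It was the only 1 of 13 detected members called higher, against 5.37% of all 10260 genes detected in fibroblast barcodes. With so little of it elsewhere, any level that met the detection rule also met the 2-fold limit, so its call was fixed by that rule. Smooth muscle barcodes held 6.157 and 4.472 CPM of Hoxc8 and endothelial barcodes 1 UMI in library 1 and 0 in library 2. The highest members in fibroblast barcodes were Hoxb2 (29.24 and 35.35 CPM), Hoxa7 (27.85 and 33.61 CPM) and Hoxa3 (21.17 and 30.19 CPM). Hoxc6, a neighbour of Hoxc8 in its cluster, had 7.454 and 7.608 CPM in fibroblast and 8.012 and 7.008 CPM in smooth muscle barcodes.

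Chondrocyte barcodes held mainly genes of low paralogue groups. Hoxa3 had 19.62 and 45.03 CPM, level with Hoxb2 (19.62 CPM) in library 1 and above it (24.05 CPM) in library 2. Hoxa5 had 13.83 and 14.54 CPM, Hoxb3 9.973 and 15.52 CPM, and Hoxa7 only 7.399 and 7.692 CPM. None of the 5 detected members was called higher, against 5.39% of all 9632 genes detected there. The Hoxc cluster gave 0 UMIs in 153 barcodes of library 1, which allows up to 0.965 CPM at 3 UMIs. It gave 42 UMIs (5.874 CPM) in 30 of 613 barcodes of library 2. Chondrocyte barcodes of library 2 were shallower and held more smooth muscle markers, and the part of this was not tested. In Schwann barcodes 0 of 39 members met the detection rule, a rule that 4814 of all 32285 genes met there, so 0 could be called higher, where 20.9% of those 4814 genes were. A single UMI is worth 3.98 and 6.96 CPM in that class, so most Hox genes were not detectable at this depth. With barcodes down to 1000 UMIs the Schwann sum was 74.54 CPM (49.53 to 107.7) and 119.5 CPM (80.65 to 170.7) from 28 and 30 UMIs.

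The classes differed in how far along the clusters their RNA lay. Groups 9 to 13 made up 21.3% (20.2 to 22.4) and 22.4% (20 to 25) of Hox UMIs in endothelial barcodes. They made up 7.19% and 11.5% in smooth muscle, 5.39% and 6.71% in fibroblast, and 1.32% and 3.3% in chondrocyte barcodes. Groups 1 to 4 made up 65.6% and 75% of Hox UMIs in chondrocyte barcodes, 44.3% and 43.4% in smooth muscle, 43.3% and 43.4% in fibroblast, and 32.7% and 30.6% in endothelial barcodes. The mean paralogue group, weighted by UMIs, was 5.87 and 5.96 in endothelial, 5.05 and 5.23 in smooth muscle, 5.02 and 5.03 in fibroblast, and 3.84 and 3.63 in chondrocyte barcodes. Within groups 9 to 13, endothelial RNA was mostly of group 9, with 68.98 and 74.63 CPM there against 10.88 and 15.15 CPM in smooth muscle. Beyond group 10 there was next to none, with at most 0.8246 CPM for any of groups 11 to 13 in these 4 classes.

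**Figure D3:**
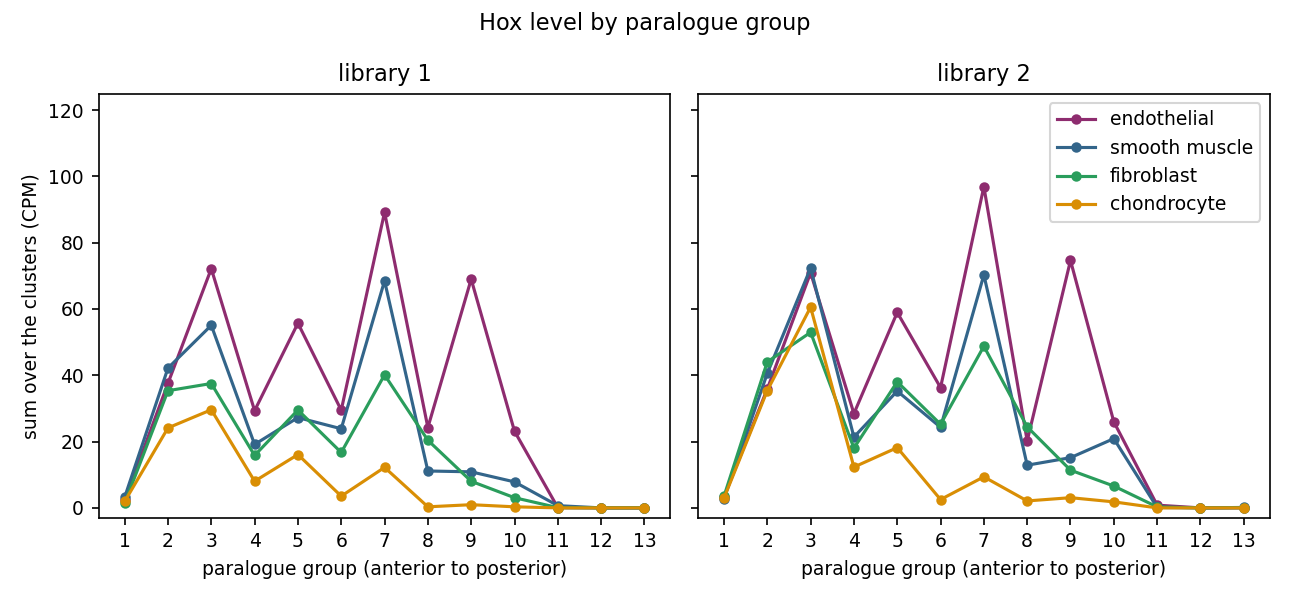
Hox RNA summed over the clusters (CPM, y axis) by paralogue group 1 to 13 (x axis) for 4 classes, with 1 panel per library. Endothelial barcodes have a peak at group 9 of 68.98 and 74.63 CPM, chondrocyte barcodes fall away after group 3, and all classes are near 0 beyond group 10.

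Within smooth muscle, Hox levels split by Hand2. Hand2 is a transcription factor of the heart, the outflow tract and the pharyngeal arches, and it was taken from a list of other positional factors after Hox values had been seen. Outside the mural gate described below, 239 and 219 smooth muscle barcodes had a Hand2 UMI and 679 and 1073 had none. Hox RNA of groups 5 to 8 was 14.79 and 31.21 CPM in barcodes with a Hand2 UMI, against 175 and 159.9 CPM in those without. The ratios were 0.0845 (0.0622 to 0.112) and 0.195 (0.155 to 0.242). Groups 9 to 13 gave 1 and 7 UMIs with Hand2, against 130 and 211 UMIs without, or 0.3019 and 2.511 CPM against 17.29 and 20.36 CPM. Groups 1 to 4 differed much less, with 92.38 and 106.9 CPM against 130 and 148.8 CPM and ratios of 0.711 (0.623 to 0.809) and 0.718 (0.633 to 0.814).

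In the Hoxa cluster the change lay between Hoxa4 and Hoxa5. Hoxa2 had 6.943 and 6.815 CPM with Hand2 against 6.118 and 5.692 CPM without, Hoxa3 had 33.81 and 41.97 CPM against 35.65 and 51.33 CPM, and Hoxa4 had 4.528 and 5.739 CPM against 3.857 and 5.692 CPM. Hoxa5 had 5.132 and 11.12 CPM against 22.35 and 20.16 CPM. Hoxa7 had 4.528 and 10.4 CPM against 73.55 and 60.11 CPM, ratios of 0.0616 (0.0342 to 0.102) and 0.173 (0.115 to 0.251). Hoxb6 had 0.3019 and 1.435 CPM against 21.95 and 19.3 CPM, and Hoxb7 had 1.208 and 2.869 CPM against 20.35 and 21.42 CPM. Hoxc6 gave 2 and 1 UMIs with Hand2 against 78 and 72 without. The most abundant Hox gene of smooth muscle was thus far lower in barcodes in which Hoxa2, Hoxa3 and Hoxa4 were at about the level of the others.

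By rule, a gene was lower when it was 1.5-fold or more lower in both libraries, among genes at 5 or more CPM in each library over both sides together. Of 11 Hox genes tested, 7 were lower with Hand2 (Hoxa5, Hoxa7, Hoxb4, Hoxb5, Hoxb6, Hoxb7 and Hoxc6) against 1.87% of all 9837 genes, and 0 were higher against 0.742%. Hoxb5, Hoxb6, Hoxb7 and Hoxc6 were under 5 CPM with Hand2 in both libraries and met that level through the barcodes without it. Hoxa7 was so in library 1 alone, at 4.528 CPM. The count of 7 and the median ratio below were thus in part set by that level. The 4 called neither way were Hoxa2, Hoxa3, Hoxb2 and Hoxb3. Of these, Hoxb2 had 21.13 and 28.34 CPM with Hand2 against 41.23 and 39.75 CPM without, ratios of 0.512 (0.39 to 0.666) and 0.713 (0.553 to 0.909), which passed the fold in library 1 alone. The median ratio over the 11 was 0.23 and 0.352, against 0.959 and 0.978 over all genes tested. Barcodes with a Hand2 UMI were deeper, with median depths of 13372 and 12121 UMIs against 10535 and 9002, and a barcode without such a UMI may still use the gene. Summed smooth muscle markers stood at 52260 and 49992 CPM with Hand2 against 46217 and 49296 CPM without, and summed mural markers at 712.4 and 888.1 CPM against 1192 and 1524 CPM. Their part in the result was not tested.

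**Figure D4:**
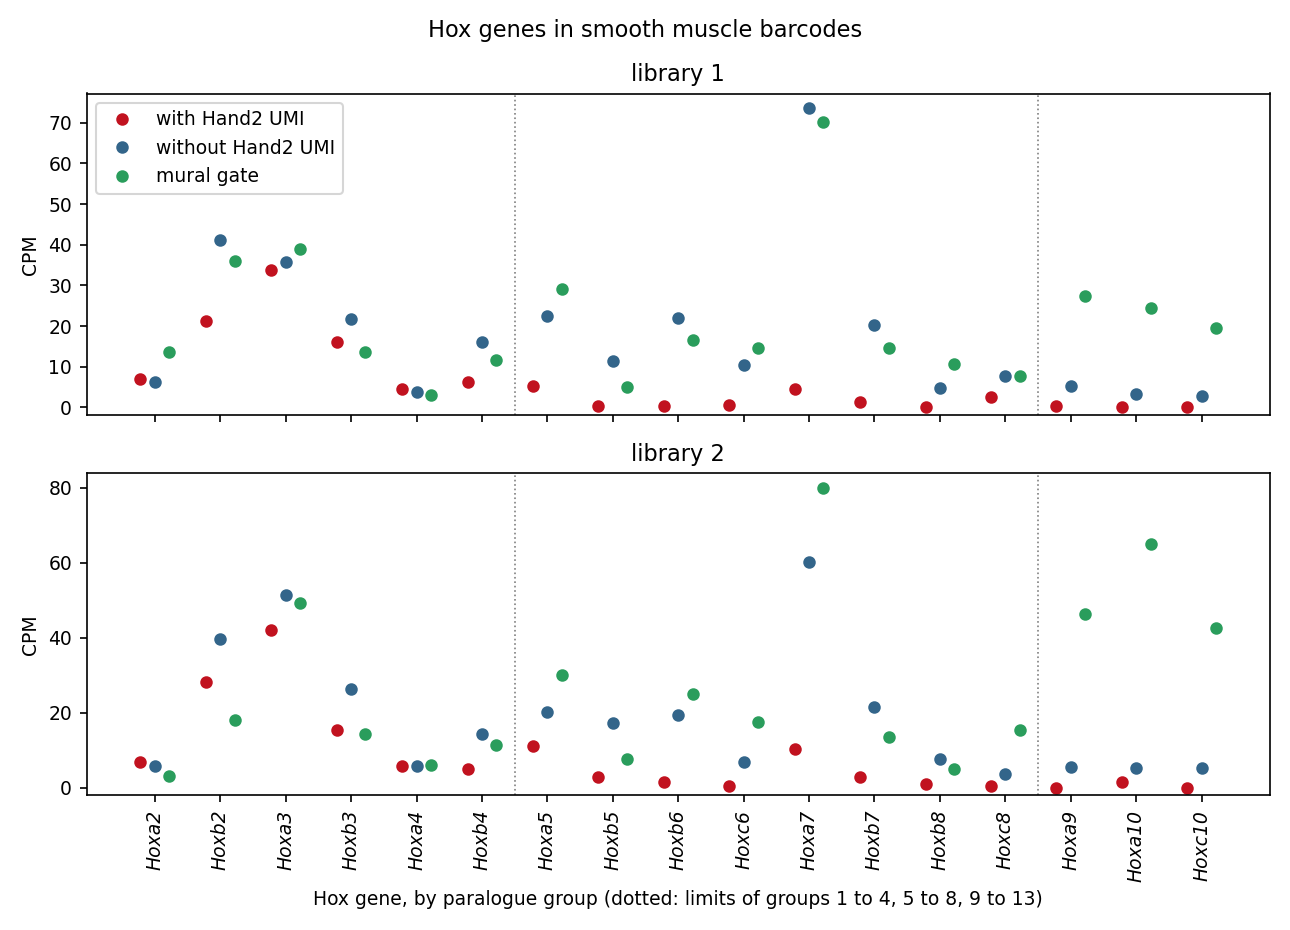
Level of 17 Hox genes with 100 or more UMIs (CPM, y axis) in smooth muscle barcodes, by gene in order of paralogue group (x axis), with 1 panel per library. Points are barcodes outside the mural gate with a Hand2 UMI, those without one, and barcodes of the mural gate. Hoxa7 lies at 4.528 and 10.4 CPM with Hand2, against 73.55 and 60.11 CPM without, and Hoxa10 reaches 24.36 and 65.06 CPM in the mural gate.

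Few genes of the other lists were called in this split. Over all 9837 genes 1.87% were lower and 0.742% higher, so lists this short would seldom give a call. The median ratio was 1.02 and 0.955 over TALE cofactors, 1.1 and 1.01 over regulators and 1.06 and 1.09 over noncoding genes. It was 0.778 and 0.96 over 11 other positional factors tested, against 0.959 and 0.978 over all genes. Of 8 TALE cofactor genes tested 0 were called in either direction, with Meis2 at 149.7 and 132.4 CPM with Hand2 against 117.4 and 110.2 CPM without. Of 18 genes that regulate Hox clusters (Polycomb, Trithorax and retinoic acid genes) 0 were called. Of 4 noncoding genes of the Hox clusters 1 was lower, Hoxaas3, at 5.132 and 6.098 CPM against 7.715 and 9.358 CPM. The strand setting of the counting is not stated, so reads of such genes and of Hox genes that they overlap cannot be told apart. Tbx20, a heart transcription factor, was not called, with 32.6 and 12.55 CPM against 15.96 and 8.683 CPM. Divided by Tbx20 UMIs in place of Hand2 UMIs, 3 of 11 Hox genes tested were lower (Hoxa7, Hoxb7 and Hoxc6) against 2.04% of all 9837 genes, and 0 were higher against 1.35%. In that division fibroblast markers stood at 2396 and 1487 CPM with Tbx20 against 1077 and 1086 CPM without, and their part in the result was not tested.

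Fibroblast barcodes showed the same order along the clusters when divided by Hand2. In the 390 and 262 barcodes with a Hand2 UMI, groups 9 to 13 had 1.621 and 2.737 CPM, against 15.4 and 23.89 CPM in the 1455 and 1376 without, ratios of 0.105 (0.0537 to 0.187) and 0.115 (0.0585 to 0.203). Groups 5 to 8 had ratios of 0.431 (0.387 to 0.479) and 0.279 (0.241 to 0.322), and groups 1 to 4 had ratios of 0.988 (0.9 to 1.08) and 0.945 (0.852 to 1.05). Hoxc8 had 7.158 and 2.509 CPM with Hand2 against 17.46 and 19.74 CPM without. Median depth was 15378.5 and 13893 UMIs with Hand2 against 8436 and 6211 without. In chondrocyte barcodes the ratios for groups 5 to 8 were 0.588 (0.389 to 0.895) and 0.709 (0.54 to 0.927) and those for groups 1 to 4 were 0.887 (0.655 to 1.21) and 1.09 (0.944 to 1.25), with median depths of 28542 and 19183 UMIs with Hand2 against 5233.5 and 4359 without. Summed smooth muscle markers were also lower in the chondrocyte barcodes with Hand2, at 325.5 and 903.6 CPM against 1314 and 2712 CPM, and their part in the result was not tested. Whether the classes differ in this was not tested.

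A small part of the smooth muscle class held a large share of its RNA from the far end of the clusters. Barcodes with 4 or more of the mural markers Rgs5, Notch3, Kcnj8, Abcc9, Higd1b, Cspg4 and Pdgfrb and 40 or more of their UMIs per 10000 formed a mural gate of 69 and 155 barcodes, against 918 and 1292 other smooth muscle barcodes. These are marker genes of mural cells of small vessels, and Rgs5 carried most of the gate, with 5729 and 7663 CPM in it against 369.3 and 797.1 CPM outside, while Cspg4 had ratios of 1.01 and 1.03. Myh11, a smooth muscle myosin, was kept at 3051 and 3101 CPM in the gate against 3560 and 3398 CPM outside. Groups 9 to 13 had 96.46 and 178.2 CPM in the gate, against 12.1 and 16.57 CPM outside, ratios of 7.98 (6.08 to 10.4) and 10.8 (9.03 to 12.8). Endothelial barcodes held 92.19 and 101.4 CPM of these groups, so a high level of them was not particular to that class. The Hox sum in the gate was 408.3 CPM (370.1 to 449.3) and 510.7 CPM (478.4 to 544.5), in library 2 above that of the endothelial class by value. The gate, 6.99% and 10.7% of the smooth muscle barcodes, gave 43% and 59.9% of their UMIs from these groups.

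Hoxa10 had 24.36 and 65.06 CPM in the mural gate against 2.308 and 4.562 CPM outside, ratios of 10.6 (5.82 to 19.2) and 14.3 (10.4 to 19.8). In endothelial barcodes it had 22.25 and 25.15 CPM. Hoxc10, known for lumbar segment identity, had 19.49 and 42.65 CPM against 1.847 and 4.258 CPM, and Hoxa9 had 27.28 and 46.47 CPM against 3.693 and 4.334 CPM. The gate also held more Hoxc and Hoxd RNA, at 70.15 and 106.1 CPM of Hoxc against 19.02 and 17.03 CPM and at 12.67 and 24.06 CPM of Hoxd against 1.847 and 2.129 CPM. Hoxb RNA was not higher, at 112.1 and 97.32 CPM against 111.2 and 128.9 CPM. Groups 1 to 4 had ratios of 1.11 (0.923 to 1.33) and 0.836 (0.723 to 0.964) and groups 5 to 8 of 1.43 (1.22 to 1.67) and 1.62 (1.45 to 1.81).

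Among 12 Hox genes at 5 or more CPM over the smooth muscle class, 3 were 1.5-fold or more higher in the gate (Hoxa5, Hoxa9 and Hoxc6) against 1.57% of all 9857 genes tested, and 1 was lower (Hoxb5) against 1.47%. Hoxa9, at 3.693 and 4.334 CPM outside the gate, reached 5 CPM only through the gate, so its call was fixed by that level. Hoxa10 and Hoxc10 were below it in library 1 and so were not tested. The median ratio over the 12 was 1.1 and 0.965, against 1 and 1.03 over all genes. Among other positional factors Nr2f2 and Prrx1 were higher and Hand2, Tbx2 and Twist1 lower. Hand2 had 11.69 and 0.5467 CPM in the gate against 41.36 and 26.46 CPM outside, and Nr2f2, a nuclear receptor of vein and mural cells, had 140.3 and 183.2 CPM against 92.14 and 78.61 CPM. None of 8 TALE cofactors and none of 19 regulators was called, and 1 of 4 noncoding genes, Hoxb3os, was lower.

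Seen from the far end of the clusters, Hand2 was lower. This view largely restates the division by Hand2 from its other side, so it adds no separate support. Smooth muscle barcodes with a UMI of groups 9 to 13, 104 and 237 in number, had 1.525 and 3.72 CPM of Hand2, against 43.43 and 27.57 CPM in the 883 and 1210 without, and 1.525 and 1.488 CPM of Tbx20 against 22.95 and 10.49 CPM. Their median depths were of 11771 and 10605 UMIs against 11296 and 9448.5 UMIs. Of these barcodes 31.7% and 45.1% were in the mural gate, against 4.08% and 3.97% of the rest. Outside the gate the same division left Hand2 at 1.214 and 7.532 CPM against 44.67 and 28.58 CPM. Among other positional factors, Nr2f2 (192.2 and 156.3 CPM against 84.39 and 77.19 CPM) was higher and Hand2, Tbx15, Tbx20 and Twist1 were lower. Of the 11 Hox genes of groups 1 to 8 tested, 1 was higher (Hoxc6, 20.59 and 19.72 CPM against 6.448 and 4.23 CPM, so that in library 2 it reached 5 CPM only through them) against 1.53% of all 9862 genes, and 0 were lower against 1.46%. Of 8 TALE cofactors and 19 regulators 0 were called, and of 4 noncoding genes Hoxaas3 was higher and Hoxb3os lower.

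In smooth muscle and fibroblast barcodes Hoxa9 and Hoxc10 were higher with a Hoxa10 UMI, whereas Hoxb9 did not follow in both libraries. In the 36 and 107 smooth muscle barcodes with a Hoxa10 UMI, Hoxa9 had 48.18 and 51.12 CPM, against 3.874 and 5.289 CPM in those without, ratios of 12.4 (7.23 to 20.9) and 9.66 (6.85 to 13.6). Hoxc10, on another chromosome, had 36.13 and 55.5 CPM against 1.937 and 4.261 CPM, ratios of 18.7 (9.43 to 36.4) and 13 (9.13 to 18.7). Hoxa3 in the same barcodes was not apart, with ratios of 0.844 (0.468 to 1.41) and 0.943 (0.718 to 1.22). Hoxb9 had ratios of 4.56 (1.13 to 13.6), from 4 UMIs, and 0 (0 to 1.65). Hoxb2 had ratios of 0.91 (0.515 to 1.5) and 0.333 (0.193 to 0.539), so it was lower in library 2. The mural gate, itself high in Hoxa9 and Hoxc10, was kept in this division and held 25 of 50 and 119 of 179 Hoxa10 UMIs. Smooth muscle barcodes with Hoxa10 had median depths of 13748 and 11307 UMIs against 11296 and 9499 without. The part of the gate and of depth in these ratios was not tested. In fibroblast barcodes with a Hoxa10 UMI, 24 and 33 in number, Hoxc10 had 26.53 and 36.24 CPM against 1.132 and 2.712 CPM. Hoxb9 was not apart there, with ratios of 1.16 (0.137 to 4.33) and 0.678 (0.0168 to 3.95). Median depths were 23155 and 11819 UMIs with Hoxa10 against 9559 and 6806 without. Hoxc8 and Hoxc6, which lie side by side, also went together in fibroblasts, with Hoxc6 at 21.72 and 18.64 CPM in barcodes with a Hoxc8 UMI against 5.031 and 6.344 CPM without, at median depths of 14055.5 and 8653 UMIs against 8962 and 6604.

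Endothelial barcodes with and without a UMI of groups 9 to 13 were about equal in number, 392 and 88 with against 440 and 87 without. Those with one were deeper, at medians of 15554 and 14414 UMIs against 8455 and 8094, and held 254.5 and 248.5 CPM of groups 5 to 8 against 116.5 and 156.4 CPM. Fibroblast markers stood at 1433 and 1188 CPM in them against 1767 and 2417 CPM, and macrophage markers at 33.94 and 27.16 CPM against 87.08 and 37.8 CPM; their part in the result was not tested. Hand2 gave 4 and 0 UMIs in them against 27 and 11. With a Hoxa10 UMI, 199 and 43 barcodes, Hoxa9 was 2 (1.66 to 2.41) and 2.32 (1.51 to 3.58) times as high as without. Hoxb9 was 2.49 (1.99 to 3.11) and 2.7 (1.66 to 4.43) times as high. Genes of earlier groups were in part higher too, with Hoxa3 at 1.32 (1.09 to 1.58) and 1.82 (1.18 to 2.81) times. Hoxa7 had ratios of 1.62 (1.39 to 1.88) and 1.34 (0.954 to 1.87), and Hoxb2 of 0.923 (0.744 to 1.14) and 0.913 (0.531 to 1.53). Median depths were 18921 and 15497 UMIs with Hoxa10 against 10027 and 10358 without, and their part was not tested.

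Among the 4 classes with more than 13 Hox UMIs a library, the libraries differed least in endothelial barcodes. The Hox sum had a ratio of library 1 over library 2 of 0.956 (0.895 to 1.02) in endothelial, 0.853 (0.816 to 0.893) in smooth muscle, 0.761 (0.731 to 0.793) in fibroblast and 0.655 (0.575 to 0.745) in chondrocyte barcodes. The same ratio was 0.694 (0.598 to 0.806) in low-count barcodes and 0.494 (0.333 to 0.731) in macrophage barcodes. These are differences between 2 libraries that could be tied to no treatment, with nothing to show the spread between animals.

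A member was called between libraries at a 1.5-fold difference, among those with a mean of 5 or more CPM and 10 or more UMIs. In smooth muscle barcodes 0 of 15 were higher in library 1 against 3.57% of all 10142 genes, and 4 of 15 were higher in library 2 (Hoxa9, Hoxa10, Hoxb5 and Hoxc10) against 2.22%. Hoxa10 had 4.217 CPM in library 1 and 11.95 CPM in library 2, a ratio of 0.353 (0.253 to 0.485). In fibroblast barcodes 0 of 13 were higher in library 1 against 1.51% of all 10524 genes, and 3 were higher in library 2 (Hoxb5, Hoxb6 and Hoxb8) against 2.46%. In endothelial barcodes 1 of 17, Hoxd8, was higher in library 1 against 2.37% of all 10483 genes, and 0 were higher in library 2 against 7.48%. In chondrocyte barcodes 0 of 7 were higher in library 1 against 4.46% of all 10181 genes, and 4 were higher in library 2 (Hoxa2, Hoxa3, Hoxb3 and Hoxb4) against 13.4%. Hoxa3 there had 19.62 CPM in library 1 and 45.03 CPM in library 2, a ratio of 0.436 (0.326 to 0.574). The median log2 ratio over the members tested was -0.12 in smooth muscle, -0.3 in fibroblast, -0.038 in endothelial and -0.62 in chondrocyte barcodes, against -0.032, -0.064, -0.088 and -0.11 over all genes tested in those classes.

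In smooth muscle the library difference was larger in groups 9 to 13 than in groups 1 to 4 (0.872) or 5 to 8 (0.916). Groups 9 to 13 had 19.4 CPM in library 1 and 36.31 CPM in library 2, a ratio of 0.534 (0.456 to 0.624). The ratio was 0.541 (0.428 to 0.68) inside the mural gate and 0.73 (0.583 to 0.91) outside it. Among barcodes outside the gate with no Hand2 UMI it was 0.849 (0.677 to 1.06). The mural gate held 6.99% of smooth muscle barcodes in library 1 and 10.7% in library 2, and barcodes with a Hand2 UMI 24.8% and 15.2%. The part of these shares in the ratio of the whole class was not tested.

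**Figure D5:**
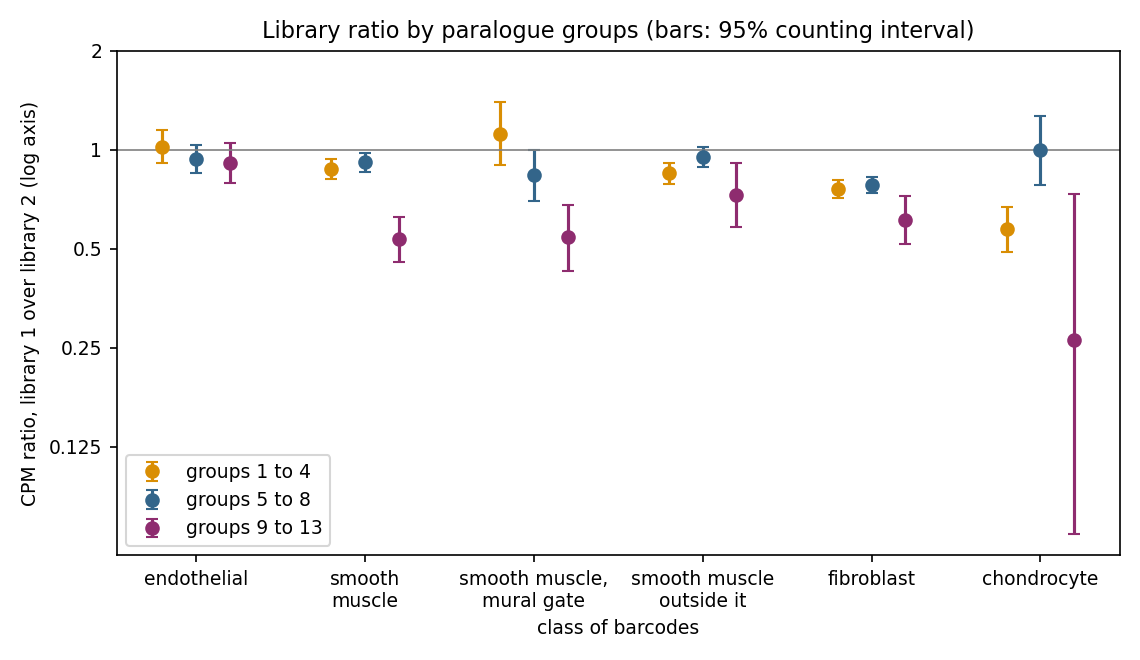
Ratio of Hox CPM in library 1 over library 2 (y axis, log scale) for groups 1 to 4, 5 to 8 and 9 to 13 by class of barcodes (x axis), with 95% counting intervals. Groups 9 to 13 lie at 0.534 in all smooth muscle barcodes, at 0.541 in the mural gate and at 0.73 outside it, and at 0.909 in endothelial barcodes.

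In fibroblast and chondrocyte barcodes, other positional factors were called higher more often than the partners of Hox proteins. Among the TALE cofactors, Meis2 was called higher in endothelial barcodes. It had 353.4 and 436.6 CPM there, against 130.6 and 121.7 CPM in smooth muscle and 159 and 154.9 CPM in fibroblast barcodes. In smooth muscle, fibroblast and chondrocyte barcodes 0 of 8, 0 of 8 and 0 of 7 detected TALE genes were called. The shares over all genes detected there were 7.34%, 5.37% and 5.39%, so 0 of so few genes is near them. Meis1 ran the other way, with 26.54 and 33.4 CPM in endothelial and 46.89 and 69.88 CPM in smooth muscle barcodes.

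Of 45 other positional factors, 4 of 12 detected were higher in endothelial barcodes (Tbx1, Isl1, Nkx2-3 and Pax9) and 5 of 17 in fibroblast barcodes (Prrx1, Prrx2, Meox1, Meox2 and Pax1). In chondrocyte barcodes 5 of 13 were higher (Hand2, Tbx15, Tbx20, Prrx2 and Irx3), in smooth muscle 0 of 12 and in Schwann barcodes 1 of 1 (Nr2f2). The shares over all genes, for these and the next lists too, were 11.6% in endothelial, 5.37% in fibroblast, 5.39% in chondrocyte, 7.34% in smooth muscle and 20.9% in Schwann barcodes. Isl1 had 50.47 and 61.85 CPM in endothelial barcodes and 2.53 and 1.001 CPM in smooth muscle. Hand2 had 49.86 and 43.21 CPM in chondrocyte, 38.8 and 23.29 CPM in smooth muscle, 26.33 and 24.26 CPM in fibroblast and 2.464 and 4.535 CPM in endothelial barcodes. Of 27 regulators of the clusters, Aldh1a2, which makes retinoic acid, was higher in fibroblast barcodes (1 of 21 detected, 7.905 and 11.32 CPM). Cyp26b1, which breaks retinoic acid down, was higher in chondrocyte barcodes (1 of 18 detected, 54.69 and 63.21 CPM). Among the rest, 0 of 19 were called in smooth muscle and 0 of 17 in endothelial barcodes, and Ezh2 was called higher in Schwann barcodes (75.7 and 104.4 CPM). Of 10 noncoding genes of the clusters, Hoxd3os1 was higher in endothelial barcodes (12.8 and 14.84 CPM), Hoxaas2 in smooth muscle (8.687 and 10.61 CPM) and Hoxb3os in Schwann barcodes (39.84 and 41.74 CPM).

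Fibroblasts were not alike in their Hox genes. Subsets were taken by summed marker genes and may share no border with subsets of other work. Barcodes with the Inmt markers, 355 and 363 in number, summed to 291.8 CPM (273.1 to 311.4) and 449.1 CPM (424.4 to 474.9), with Hoxa7 at 44.44 and 73.94 CPM and Hoxc8 at 29.3 and 33.88 CPM. Barcodes with the Penk markers, 57 and 120 in number, summed to 175 CPM (150.7 to 202.1) and 168.5 CPM (150.5 to 188), with Hoxa7 at 31.21 and 11.09 CPM and Hoxc8 at 7.566 and 2.113 CPM. Groups 1 to 4 gave 40.5% and 62.7% of Hox UMIs in the Penk subset and 36.5% and 31.9% in the Inmt subset. The Opcml subset summed to 212.3 and 211.6 CPM, the Saa3 subset to 261.3 and 230.9 CPM and the Apod subset to 244.8 and 292.7 CPM. The Saa3 subset, 41 and 46 barcodes, held Hoxb2 at 42.78 and 42.16 CPM and Hoxc8 at 19.66 and 44.17 CPM. Smooth muscle barcodes that also carried fibroblast genes, which were left out of both classes, summed to 212.3 and 276 CPM in 120 and 176 barcodes.

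Of the 21 members below the detection rule in all 5 classes, Hoxa13, Hoxb13, Hoxc12, Hoxd1 and Hoxd12 gave no UMI in them. Over the 5 classes Hoxc10 had 85 and 204, Hoxc4 101 and 107, Hoxc9 95 and 127, Hoxc5 95 and 76, and Hoxd9 80 and 50 UMIs. Hoxd4 had 46 and 15, Hoxd3 35 and 11, Hoxa6 22 and 18, Hoxd10 11 and 5, Hoxa11 5 and 6, Hoxc11 6 and 2 and Hoxb1 0 and 5 UMIs. Hoxc13 and Hoxd11 each gave 1 UMI in library 2 only, and Hoxd13 gave 1 and 2. The silent members lay at the far end of the clusters, apart from Hoxd1. Just outside the detection rule in smooth muscle, Hoxc8 had 6.157 and 4.472 CPM and Hoxa10 4.217 and 11.95 CPM. Just inside it, Hoxa2 had 7 and 5.607 CPM and Hoxa9 5.735 and 9.478 CPM.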

How the data were processed

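Aortic cells of 2 samples were measured by droplet RNA sequencing. The authors deposited UMI counts, whole numbers for every gene in every barcode and not scaled in any way, as a single unfiltered matrix, and its file headers name Cell Ranger 6.0.1. Per the submitters' processing notes, the tools were Cell Ranger, bcl2fastq and Seurat with the mm10 build; which annotation was counted is not stated in those sources. The matrix held 110257209 UMIs in library 1 and 124266676 UMIs in library 2, of which kept barcodes had 78646363 and 61693518. No sample column was left without a mapping to a sample or to the pooled matrix (0 such columns).

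The members and lists were chosen with earlier results of these data known. A barcode entered a class when the class's markers reached a set level per 10000 UMIs and a set number of markers was present (for smooth muscle 200 per 10000 and 6 of 12 markers, fibroblast 100 and 5 of 10, endothelial 20 and 4 of 11, chondrocyte 20 and 4 of 12, Schwann 10 and 3 of 12) and no other class reached its own lower level for leaving a barcode out (such as 100 for smooth muscle and 50 for fibroblast markers), except that fibroblast genes were allowed in chondrocytes. These levels, the mural gate and the Hand2, group 9 to 13 and Hoxa10 divisions were set after seeing the data, the gates without reading Hox values. No doublet caller was run. Barcodes with markers of another class were left out instead, so doublets within a class remain.

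UMIs were summed per class and library and given as CPM, with exact Poisson intervals on CPM and ratios and exact binomial (Clopper-Pearson) intervals on shares, at 95%. A count of 0 was read as up to 3 counts. The 12 members with the highest mean CPM over classes and libraries, the 3 highest of each class and any of groups 10 to 13 with 5 or more UMIs in both libraries of a class were described in detail. Genes named for the mural gate, the divisions and the subsets beyond this rule were chosen after their values were seen. Fold calls were run on simulated counts for 32285 genes: of 100 genes raised 3-fold, 99 to 100 were called in a class, of 100 raised 1.5-fold 0, and 0 of 10590 to 10779 unchanged genes. The counts were Poisson draws from the mean profile of the 5 classes, with no spread between barcodes. Genes were raised in each class but Schwann. With folds on either side of the 2-fold limit these calls were nearly fixed in advance, so they show only that the rule was applied as stated. Python 3.11.15, numpy 2.4.6, scipy 1.17.1, pandas 2.3.3 and matplotlib 3.10.9 were used, and edgeR 4.0.16 in R 4.3.3 for TMM factors alone. A few genes are not reported here. Sequences are from RefSeq on GRCm38.p6.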

Additional observations from a re-analysis of the deposited data

Results flagged for a closer look

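A class outside the comparisons above, lymphatic endothelial barcodes, showed Hox genes above the limit that a count of 0 allows (3 UMIs, or 16.9 CPM in library 1 and 29.6 CPM in library 2). It held only 20 barcodes in library 1 and 6 in library 2. Hoxb7 had 39.44 and 39.52 CPM, from 7 and 4 UMIs. Hoxd8, a gene of lymphatic vessel identity, had 33.8 and 69.17 CPM, from 6 and 7 UMIs. Hoxd9 had 78.87 and 69.17 CPM, from 14 and 7 UMIs, against 4.689 and 5.36 CPM in the larger endothelial class. The Hoxd cluster reached 152.1 and 177.9 CPM in these barcodes and the Hoxc cluster gave 0 UMIs in both libraries.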

How the results depend on the processing

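Of 265 values recomputed under other settings, 217 stayed inside the span of the libraries' 95% intervals (for counts, within 1.5 times) and 48 moved; the cause was not tested. Ratios close to 1 or with wide intervals crossed 1 in fibroblast (sum), endothelial and Schwann barcodes (library ratio), as given below. The sum ratio of smooth muscle, 1.34, became 1.23 with mixed barcodes kept, 1.54 with TMM factors, 1.09 without Schwann barcodes among the others and 1.25 without the mural gate. That of fibroblast, 1.03, became 0.933 with mixed barcodes and 0.836 without Schwann, so it lay on either side of 1. Schwann went to 0.588 with mixed barcodes and endothelial to 2.04 without Schwann.

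The count of higher members in smooth muscle, 1, became 0 at a UMI minimum of 2000, with mixed barcodes, with the mean of barcode shares, at fold 3 and without the mural gate, 2 with TMM factors, and 3 at 2 CPM or fold 1.5. In fibroblast it became 2 with the mean of shares, TMM factors, free RNA subtracted, fold 1.5 or no Schwann, and 3 at 2 CPM. In endothelial barcodes 5 were higher at fold 3, against 11. A count within 1.5 times can still lose or change genes, as with Hoxa7 in smooth muscle and Hoxa5, Hoxa7 and Hoxb3 in endothelial barcodes without Schwann. Detected members became 2 in Schwann barcodes with mixed barcodes, 7 in fibroblast and 3 in chondrocyte barcodes at 10 CPM, and 19 in smooth muscle and 9 in chondrocyte barcodes at 2 CPM.

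The mean paralogue group of fibroblast barcodes became 5.12 with a stricter gate and with the mean of shares and 4.93 with mixed barcodes, and that of smooth muscle 4.87 without the mural gate. The library ratio of the sum became 0.81 (stricter gate) and 0.899 (mean of shares) in smooth muscle, 0.561 in chondrocyte (mixed barcodes), 0.815 in fibroblast and 1.11 (from 0.956) in endothelial (TMM factors), and 1.43 (from 0.573) in Schwann barcodes (UMI minimum 5000). The share with a Hox UMI, thinned to 5000 UMIs and not thinned, was 67.3% and 82.2% in smooth muscle, 62.8% and 76.5% in fibroblast, 81.3% and 89.8% in endothelial and 43.9% and 66.2% in chondrocyte barcodes. With Tbx20 in place of Hand2, 3 of 11 members were lower and the ratio of groups 5 to 8 was 0.334, against 7 and 0.128. The settings without Schwann or the mural gate, and those of the Hand2 and mural divisions, were chosen after seeing the data.

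No paired analysis was possible because no result comes from a test and no barcode suffix is tied to a sample. Leaving out a replicate was not run for the same reason. Few barcodes limited the Schwann and lymphatic values.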
